A study of Mus musculus with 20 samples.

Results

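The genotype effect in the dark phase was measured in the hypothalamus of mice that lack both Magel2 and Ndn. Members were chosen by label alone: the 5 libraries of wild-type mice (WT_night) and the 5 of double-deleted mice (KO_night) collected 18 h after light on, which are 10 of the 20 libraries of the series. WT mice were C57BL/6J, and the double-deleted mice carry the series' name MADIN, while their genotype field calls them a knockdown. All mice had food and water freely and lived in a regular light and dark cycle. The libraries hold total RNA depleted of ribosomal RNA. The labels give no age, sex or strain background of the deleted mice and do not tie each library to its own animal, and the p-values therefore cover only the spread between these samples. In WT_night 1 and KO_night 1, 2 and 3 the time field of the labels reads day where the title gives night, and the title was followed. By day the time field of KO_day 1 and 2 reads night, so 6 libraries of the series conflict. The 10 day libraries, taken 6 h after light on, entered the fit to share its estimate of spread and served for the test of night against day. The choice of genes and the scaling took in these libraries too. The titles of WT_day 4 and WT_day 5 repeat 1 code, and KO_day 5, whose title departs from the pattern of the others, was placed by its time field.

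Magel2 and Ndn are neighbouring genes of the Prader-Willi region, expressed from the paternal copy only. MAGEL2 joins an E3 ubiquitin ligase that acts with the WASH complex and retromer in the recycling of membrane proteins, and necdin, the product of Ndn, is a MAGE-family protein of postmitotic neurons. The hypothalamus governs feeding, daily rhythm and hormone release, and its magnocellular neurons make oxytocin and vasopressin.

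Library totals at night were 34221129 to 38373712 counts in WT and 32066289 to 45053446 in KO. The share of counts in mitochondrial ribosomal RNA was 18.4% to 22.1% in WT_night and 15% to 22.0% in KO_night. Hypothalamic genes were present, with means over the night libraries of 92.5 CPM for Hcrt, 29.1 for Sim1 and 7.17 for Otp. Of the day libraries, the one labelled WT_day 3 had 1480 counts of Ndn and 103 of Magel2, well below the other wild-type libraries. It entered the night comparison through steps that took in all 20 libraries: the shared spread, the gene filter, the scaling and each gene's mean. Without it 22374 genes were tested and 1022 passed, in place of the 1363 of 22181 given next.

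Libraries differed in how their levels moved with gene length, and over all tested genes with a span this trend separated the genotypes at night. Gene span here is the distance from the first to the last base of a gene, introns included. The slope of log2 CPM on span was 0.057, 0.0353, 0.0978, -0.0094 and 0.0188 per 10-fold longer span in WT_night 1 to 5. It was -0.0351, -0.0696, -0.0396, -0.0300 and -0.0179 in KO_night 1 to 5. Every KO slope lay below every WT slope. The means of 0.0399 ± 0.0404 and -0.0384 ± 0.0192 (SD, n = 5 each) differed with an exact two-sided permutation p of 0.00794, the smallest that 5 against 5 libraries allow. Among genes with a mean of at least 1 CPM, and among protein-coding genes only, the groups overlapped through WT_night 4. Its slopes there of -0.0276 and -0.0474 lay below those of KO_night 4 (-0.0185 and -0.0142). The difference of means then had an exact two-sided permutation p of 0.0159 and 0.0238. The longest of 10 classes of genes by span had a median log2 change (KO_night against WT_night) of -0.19 under TMM scaling alone, with 8 genes that rose and 765 that fell. The shortest class had a median of 0.08. With each library's trend on span removed, the medians of these classes were 0.01 and 0.00, and 176 genes rose and 65 fell among the longest. Medians near 0 follow from the removal itself, while the calls still varied with span. In the shortest class 26 genes rose and 27 fell. Genes that rose had a median span of 39620 bases, against 17646 bases for genes tested. The values below have this trend removed unless said otherwise, and levels are CPM, the counts scaled to library size, after TMM scaling and removal of the trend. They are not divided by gene length, so they compare libraries and not genes.

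**Figure D1:**
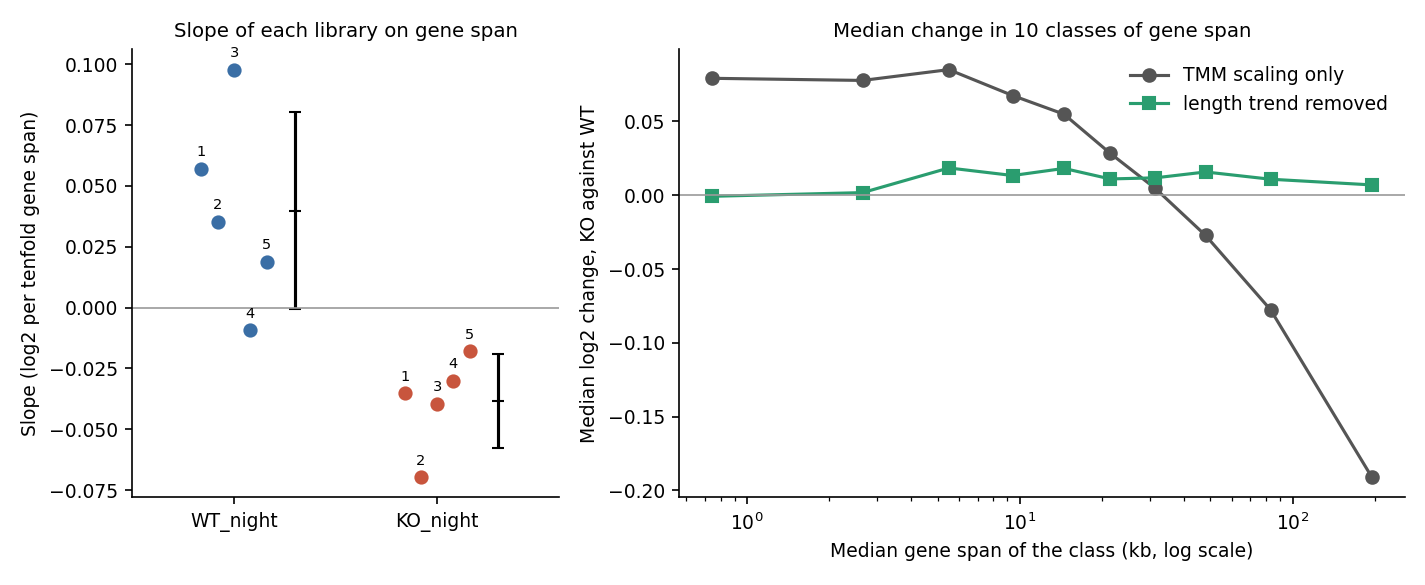
Left, the slope of each night library's log2 CPM on gene span (log2 per 10-fold span; points are libraries, bars the mean ± SD), where the 5 KO slopes lie between -0.0696 and -0.0179, below all 5 WT slopes. Right, the median log2 change (KO_night against WT_night) in 10 classes of gene span against the median span of the class (kb, log scale), which falls from 0.08 to -0.19 with TMM scaling only and stays near 0 with the trend removed.

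Of 22181 genes tested, 1363 (6.14%) passed edgeR's quasi-likelihood test (adjusted p under 0.05, Benjamini-Hochberg), 883 of them (3.98%) higher and 480 (2.16%) lower in KO_night. TMM scaling alone called 2649 genes (11.9%), of which 1148 (5.18%) rose and 1501 (6.77%) fell, so the share of calls that rose depends on the trend. The 2 fits shared 994 calls in the same direction, and 1 gene was called in opposite directions. Changes were small: 1117 of the 1363 called genes moved by less than 0.5 on the log2 scale and 43 by at least 1. The genes that rose were mostly protein-coding (93.0%, against 71.0% of genes tested), with a median CPM of 67.1 and a median change of 0.19. Those that fell were 42.9% protein-coding, with a median CPM of 5.11 and a median change of -0.49. Over all genes tested the median log2 change was 0.01 in either fit. In 914 genes (4.12%) the levels of the groups did not overlap at all.

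The number of calls rested on a few libraries. Leaving out WT_night 3 left 90 genes, WT_night 1 left 164, KO_night 2 left 170 and KO_night 3 left 300, while leaving out WT_night 4 gave 2393 and KO_night 4 gave 2788. A fit to the 10 night libraries alone called 72 genes (0.339%), 61 of them among the 1363. Using only the libraries whose time labels do not conflict called 6 genes (0.0263%): Ndn, Magel2, Gm32061, Oxt, Sult2b1 and Tuba1c. Reading time from the time field called 4 (0.0179%), namely Ndn, Magel2, Gm32061 and Gm7394. Without WT_night 1, 2 and 3 together, 12 genes passed (0.0522%). In all 10 fits that leave out 1 night library, 79 genes passed (0.356%; 53 rose and 26 fell), and these are marked as such below.

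**Figure D2:**
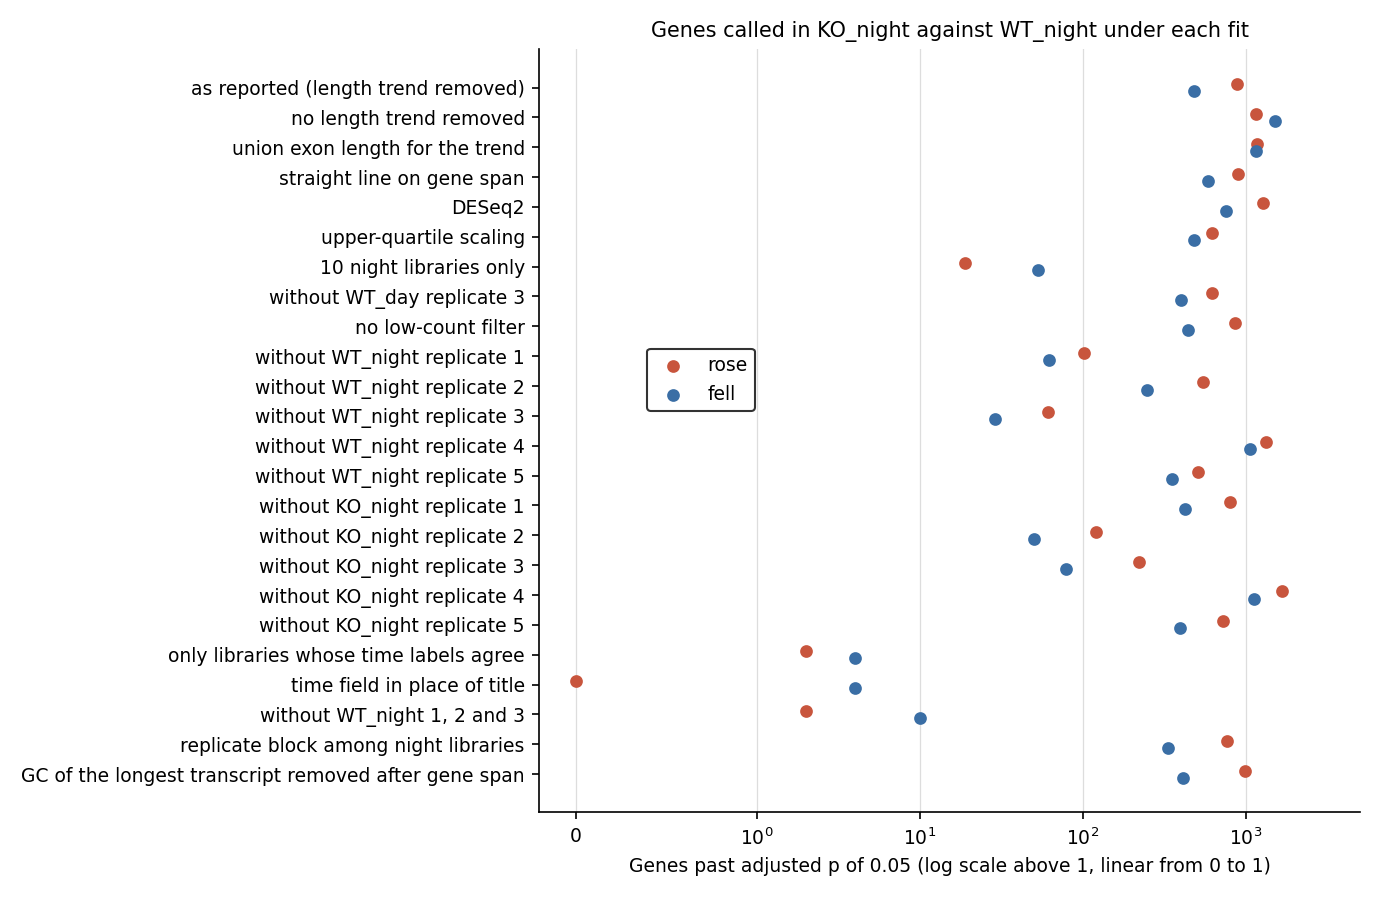
Number of genes that rose (red) and fell (blue) in KO_night against WT_night under each fit, on an axis that is logarithmic above 1 and linear from 0 to 1. The sum of both runs from 4 with time taken from the time field to 2788 without KO_night 4.

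The deleted genes were lost in every KO library. Ndn (ENSMUSG00000033585, chromosome 7, 62346569 to 62350262, + strand of GRCm38) stood at 269, 272, 256, 342 and 301 CPM in WT_night 1 to 5 and at 0.365, 0.567, 0.987, 0.681 and 0.361 CPM in KO_night 1 to 5. It fell by 8.92 ± 0.493 on the log2 scale (adjusted p = 2.97e-11), and 12 to 39 counts remained per KO library. Magel2 (ENSMUSG00000056972, 62377010 to 62381640) stood at 17.6, 19.9, 19, 17.5 and 19.3 CPM in WT_night and at 0.108, 0.135, 0.177, 0.0570 and 0 CPM in KO_night. Its change was -7.51 ± 0.521 (adjusted p = 1.57e-09), with 0 to 7 counts per KO library. Gm32061, a non-coding gene annotated across both on the opposite strand, fell from 297 ± 49.7 to 1.32 ± 0.438 CPM. Its reads cannot be told apart from those of Ndn and Magel2, because the counts do not separate strands.

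Outside the deleted genes, calls gathered on one side of them. In the 5 Mb before Ndn, 15 of the 36 genes with a test were called (41.7%; 4 rose and 11 fell), and 10 of the 15 passed in all leave-one-out fits. Within 5 Mb after Magel2, 1 of 37 passed (2.7%): the kinase gene Lrrk1, at -0.41 ± 0.118 (adjusted p = 0.0403). The rest of chromosome 7 had 110 of 1590 (6.92%) and the other chromosomes 1230 of 20483 (6.0%), both close to the 6.14% of all genes. In the same window the fit to night libraries alone called 10 genes, the fit without WT_night 1, 2 and 3 called 5, the fit on the time field called 1 and the fit with agreeing time labels called 0 (lowest adjusted p 0.0631). The difference between the 2 sides was not tested, and genes here overlap, so these are not 15 separate transcripts.

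**Figure D3:**
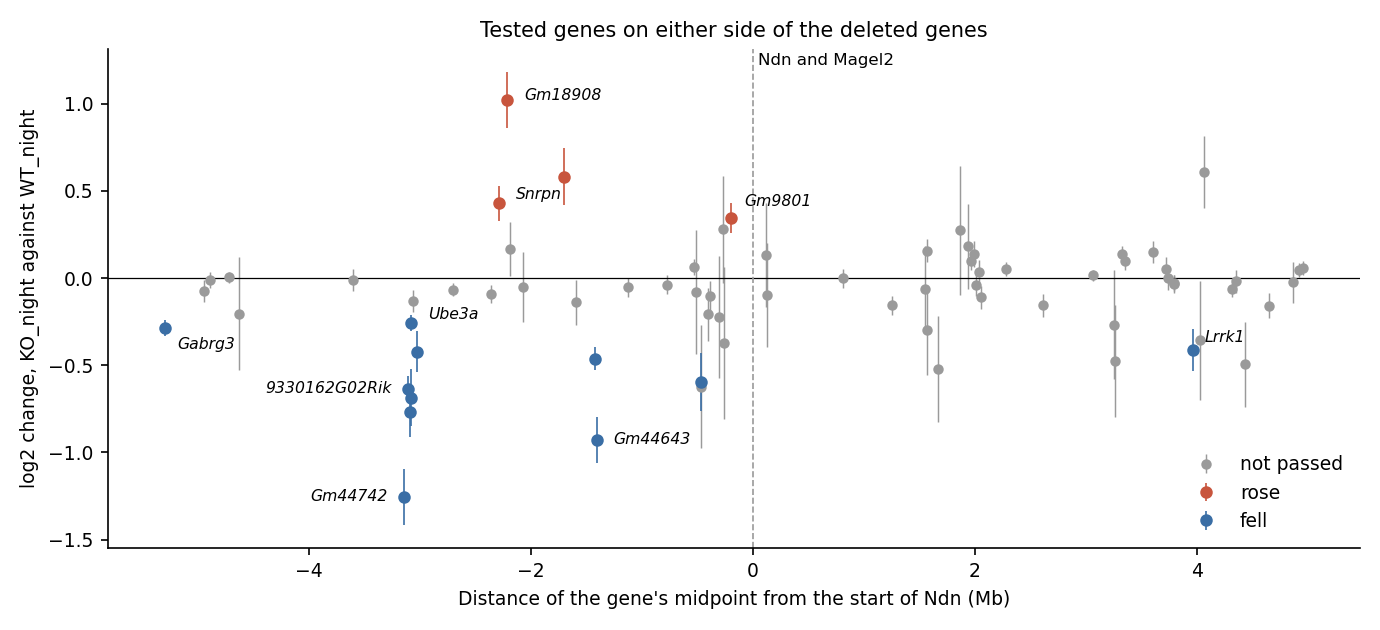
The log2 change in KO_night against WT_night (points, with their standard error) of tested genes against the distance of the gene's midpoint from the start of Ndn (Mb), leaving out genes that fell by more than 1.5. Genes that passed are coloured (red rose, blue fell), and all but Lrrk1 lie before Ndn, from Gm44742 at -1.25 to Gm18908 at 1.02.

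Ube3a, the E3 ubiquitin ligase gene of Angelman syndrome, which neurons express from the maternal copy, stood at 707, 655, 712, 673 and 720 CPM in WT_night and at 566, 559, 609, 555 and 608 CPM in KO_night. No KO library reached the lowest WT library. Ube3a fell by 0.26 ± 0.0450 on the log2 scale (adjusted p = 0.00638) and passed in all leave-one-out fits, but not without WT_night 1, 2 and 3 (adjusted p = 0.169) nor with agreeing time labels (0.156). Also lower were 4 features annotated opposite Ube3a or Snhg14, whose reads cannot be told apart from those of the larger genes, and 1 just before them. Of these, 9330162G02Rik fell from 217 ± 16.4 to 140 ± 12.5 CPM, with a change of -0.64 ± 0.0745 (adjusted p = 3.97e-05). Gm44562 (-0.77), Gm44559 (-0.68) and Gm44829 (-0.42) fell too, as did Gm44742 (-1.25), which overlaps none of them. The level and change of Ube3a may in turn hold reads of the features opposite it, and their share was not tested. Snhg14, the long non-coding transcript that hosts small nucleolar RNAs and runs antisense to Ube3a, stood at 970 to 1041 CPM in WT_night and 904 to 1034 in KO_night. It did not pass (-0.07, adjusted p = 0.288), although under TMM scaling alone it was called at -0.37 (adjusted p = 0.0185).

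Snrpn, which encodes a spliceosomal protein and begins at the imprinting centre of the region, stood at 34.9, 31.2, 38.6, 25.1 and 29.4 CPM in WT_night and at 41.5, 37.9, 42.9, 48.3 and 43.8 CPM in KO_night. The groups overlap through WT_night 3 and KO_night 2 only. Snrpn rose by 0.43 ± 0.0983 (adjusted p = 0.0186). It also rose by day, by 0.51 (adjusted p = 0.0236), and it passed without WT_night 1, 2 and 3 (0.65, adjusted p = 0.0320), but it was 0.27 with an adjusted p of 0.152 under TMM scaling alone. Gm18908, a pseudogene inside Snrpn on the opposite strand, rose from 1.66 ± 0.226 to 3.38 ± 0.104 CPM. Nearer to Ndn, the non-coding genes Gm44644 and Gm44643 fell by 0.46 and 0.93, and Gm9801 rose by 0.34. The pseudogene Gm7394 went from 2.0 ± 0.522 to 0.00984 ± 0.0137 CPM, while its neighbour Gm3198 rose by 0.58. Gm7394 passed in all leave-one-out fits and was at -6.51 by day (adjusted p = 1.1e-04), while Gm3198 passed in 2 of 10 leave-one-out fits. Whether these 2 pseudogenes are near-identical copies that share reads was not tested. Their sum, taken after their values were seen, was 4.05 ± 0.862 CPM in WT_night and 3.08 ± 0.364 in KO_night (exact two-sided permutation p = 0.0556).

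A GABA-A receptor subunit gene at the far end of the region fell. This gene, Gabrg3, which encodes the gamma-3 subunit, stood at 349, 360, 367, 325 and 321 CPM in WT_night and at 284, 273, 283, 291 and 282 CPM in KO_night. The KO libraries lie close together and below all WT libraries. Its change was -0.29 ± 0.0431 (adjusted p = 0.00152), against -0.59 under TMM scaling alone, and by day it was -0.17 (adjusted p = 0.0897). Gabra5, the alpha-5 subunit gene, was at -0.01. Herc2, a further E3 ligase gene, rose by 0.16 ± 0.0440 (adjusted p = 0.0338), but was at 0.00 under TMM scaling alone. Of the 16 tested genes of the wider Prader-Willi region list, which holds the deleted genes too, 2 rose and 4 fell, with a median of 0.00. Under TMM scaling alone none rose and 6 fell, with a median of -0.14, where 5.18% of all genes rose and 6.77% fell. The other 10 did not pass, among them Peg12 (0.13), Atp10a (-0.01), Oca2 (0.06), Nipa1 (0.01), Nipa2 (-0.01), Cyfip1 (0.11, adjusted p = 0.107) and Tubgcp5 (0.05). Of 35 tested imprinted genes elsewhere, 4 rose and 1 fell, with a median of 0.04, where 3.98% of all genes rose and 2.16% fell. Under TMM scaling alone the balance turned, with 2 that rose, 4 that fell and a median of -0.00093. Inpp5f, a phosphoinositide phosphatase gene, rose from 125 ± 8.18 to 150 ± 12.9 CPM (0.26 ± 0.0506, adjusted p = 0.0109) and passed in all leave-one-out fits, but not with the night libraries alone (adjusted p = 0.0751), without WT_night 1, 2 and 3 (0.368) nor with agreeing time labels (0.36). Calcr, the calcitonin receptor gene, rose by 0.36 ± 0.0756 (adjusted p = 0.0148) and passed in 9 of 10 leave-one-out fits, but not without WT_night 3 (adjusted p = 0.0629), without WT_night 1, 2 and 3 (0.371) nor with agreeing time labels (0.145), while Sgce, which encodes epsilon-sarcoglycan, fell by 0.15.

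Away from the region, the most marked rise of a hypothalamic hormone gene was that of Oxt, which encodes oxytocin. Oxt and Avp, the vasopressin gene, lie side by side on chromosome 2 and point toward each other. Their starts are shown here because both genes rose. The RefSeq sequences (GRCm38.p6) of the 250 bases before each start, chr2:130575919-130576168 on the + strand and chr2:130582589-130582838 on the - strand, are printed 5′ to 3′. Capitals mark GGTCA or its reverse complement TGACC, the core of nuclear receptor sites, and CACGTG, the E-box.
Oxt: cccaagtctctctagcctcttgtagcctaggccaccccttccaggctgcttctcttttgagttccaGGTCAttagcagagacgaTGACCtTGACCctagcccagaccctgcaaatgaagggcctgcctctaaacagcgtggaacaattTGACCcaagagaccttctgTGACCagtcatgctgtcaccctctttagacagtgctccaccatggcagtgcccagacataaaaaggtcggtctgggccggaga
Avp: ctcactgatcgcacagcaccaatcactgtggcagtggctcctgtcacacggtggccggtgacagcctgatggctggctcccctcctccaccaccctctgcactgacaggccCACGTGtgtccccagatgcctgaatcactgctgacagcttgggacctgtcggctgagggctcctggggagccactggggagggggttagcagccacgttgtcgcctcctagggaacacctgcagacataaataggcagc
The Oxt window holds 5 GGTCA matches over both strands and no CACGTG. Of 32851 RefSeq promoter windows of this length, 35.2% hold at least 1 GGTCA and 14 (0.0426%) hold at least 5. The Avp window holds 1 CACGTG, found in 6.02% of windows, and no GGTCA. These matches describe the letters and are not shown to be bound in these samples.

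Oxt (ENSMUSG00000027301, chromosome 2, 130576173 to 130577054, + strand) stood at 178, 164, 164, 196 and 194 CPM in WT_night 1 to 5 and at 241, 315, 270, 296 and 308 CPM in KO_night 1 to 5. Every KO library was above every WT library. Means were 179 ± 15.6 and 286 ± 30.5 CPM (SD, n = 5 each), 1.6-fold higher in KO_night, with a log2 change of 0.67 ± 0.0863 (adjusted p = 1.6e-04). Oxt passed in 21 of 23 alternative fits, all 10 leave-one-out fits among them. It kept its direction in the other 2, at 0.55 without WT_night 1, 2 and 3 (adjusted p = 0.118) and 0.57 by the time field (adjusted p = 0.0709). By day its change was 0.24 (adjusted p = 0.278), and the difference between night and day did not pass (adjusted p = 0.0817).

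Avp stood at 194, 164, 160, 232 and 221 CPM in WT_night and at 236, 255, 232, 295 and 239 CPM in KO_night. KO_night 3 lay level with WT_night 4, so the groups overlap narrowly. Avp rose by 0.37 ± 0.0959 (adjusted p = 0.0266). The call was lost without WT_night 1, 2 or 3 or KO_night 2, each in turn (adjusted p up to 0.104), and with GC content also removed (0.059). Without WT_night 1, 2 and 3 together its change was 0.15 (adjusted p = 0.643).

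In the list of the oxytocin and vasopressin system, 3 of 10 tested genes rose and none fell, with a median of 0.08, where 3.98% of all genes rose. Arnt2, a transcription factor gene needed for these neurons to form, rose from 183 ± 5.48 to 202 ± 8.48 CPM (0.15 ± 0.0379, adjusted p = 0.0264), but was at -0.01 under TMM scaling alone. The summed level of the list was 679 to 823 CPM in WT_night and 862 to 988 in KO_night, and most of it is Oxt, Avp and Arnt2. Oxtr, the oxytocin receptor, was at 0.04, and the neuron-forming factors Otp and Sim1 at 0.08 and -0.03. In bulk tissue, more cells of a type and more RNA per cell cannot be told apart.

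**Figure D4:**
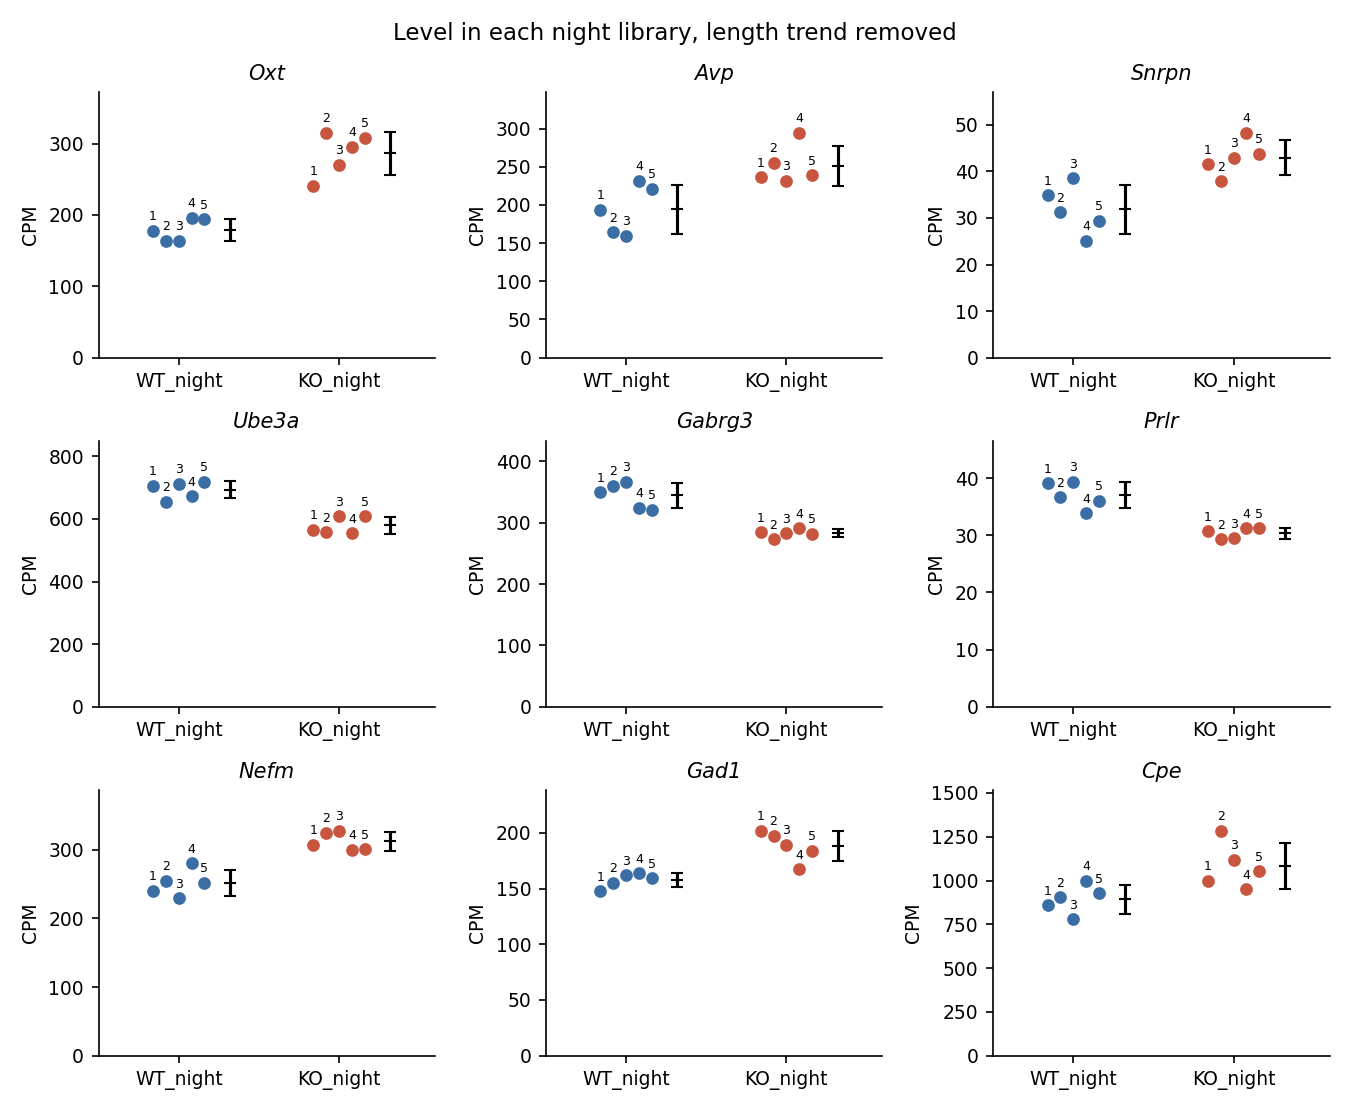
Level of 9 genes in each night library (CPM, length trend removed; points are libraries with their replicate number, bars the mean ± SD, n = 5). Oxt, Nefm and Gad1 are higher in all KO libraries, Ube3a, Gabrg3 and Prlr lower in all, and Avp, Snrpn and Cpe overlap.

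None of 26 feeding and stress peptides and receptors passed in edgeR (median 0.06, with 16 higher), although 7 had an unadjusted p under 0.05, DESeq2 called 4, and 2 rose and 1 fell under TMM scaling alone. Crh, the corticotropin-releasing hormone gene, had 2.74, 3.59, 3.26, 2.66 and 3.14 CPM in WT_night and 3.98, 4.03, 5.20, 3.62 and 3.99 CPM in KO_night. These groups do not overlap, yet the change of 0.44 ± 0.151 missed the threshold (adjusted p = 0.0786). Npy, the orexigenic peptide of the arcuate nucleus, was at 0.36 ± 0.129 (adjusted p = 0.0863). Lepr, the leptin receptor gene, was at -0.29 ± 0.0919 (adjusted p = 0.0600). Under TMM scaling alone, all 3 passed.

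Prlr, the prolactin receptor gene, stood at 39.1, 36.6, 39.4, 33.9 and 36.1 CPM in WT_night and at 30.8, 29.3, 29.5, 31.3 and 31.3 CPM in KO_night. All KO libraries lie below all WT libraries. Prlr fell by 0.29 ± 0.0557 (adjusted p = 0.0105), passed in all leave-one-out fits but not without WT_night 1, 2 and 3 (adjusted p = 0.403) nor with agreeing time labels (0.198), and was at -0.06 by day (adjusted p = 0.781). It is the 1 gene of 13 in the reproduction and growth list that passed. The choroid plexus expresses Prlr too: the other 6 tested choroid markers had a median of -0.14, with 2 higher, 4 lower and none past the threshold, and their summed level was 20.3 to 26.5 CPM in WT_night and 21.1 to 25.4 in KO_night (Kcne2 had too few counts to test). The part of choroid plexus in the change of Prlr was not tested.

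Among the clock genes, 1 rose and 1 fell, where 6.14% of all genes passed. Npas2, a partner of BMAL1, went from 22.6 ± 1.66 to 18.8 ± 2.57 CPM (-0.27 ± 0.0790, adjusted p = 0.0436), a call kept in 3 of 10 leave-one-out fits. Arntl, which encodes BMAL1, was at -0.17 (adjusted p = 0.0696). It passed under TMM scaling alone at -0.28 (adjusted p = 0.0148) and in DESeq2 (adjusted p = 0.0396). Of the clock genes highest in the light phase 0 of 6 passed, of those highest in the dark 1 of 6, and of the other clock genes 1 of 10, the repressor gene Bhlhe41 (0.13 ± 0.0369, adjusted p = 0.0403). The call of Bhlhe41 was kept in 1 of 10 leave-one-out fits. Markers of the suprachiasmatic nucleus (0 of 9) and activity-induced immediate early genes (0 of 20) did not pass either, with medians of 0.03 and 0.09. At an unadjusted p under 0.05 these lists held 1 gene (light phase), 0 (suprachiasmatic) and 5 (immediate early), and DESeq2 called none of them. Of the clock genes highest in the dark DESeq2 called 2, which fell, and of the other clock genes 2, which rose.

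Of 11 tested markers of neurons 6 rose and none fell, with a median of 0.20, where 3.98% of all genes rose. Without WT_night 1, 2 and 3 the median of this list was 0.08 and no member passed. With agreeing time labels no member passed either, and with the night libraries alone 1 did. Gad1, which makes the GABA-synthesising enzyme, stood at 148, 155, 162, 164 and 159 CPM in WT_night and at 202, 198, 189, 168 and 184 CPM in KO_night. The lowest KO library is just above the highest WT library. Gad1 rose by 0.26 ± 0.0467 (adjusted p = 0.00819), and Gad2, the sister enzyme, by 0.23 (adjusted p = 0.0206). Nefm, a neurofilament gene, rose from 251 ± 19.3 to 312 ± 13.4 CPM (0.31 ± 0.0546, adjusted p = 0.00638), with no overlap. Nefl, a second neurofilament gene, rose by 0.21 (adjusted p = 0.0156). It lies within the annotated span of Nefm on the opposite strand, so their counts are not separate. Map2 and Syt1 rose by 0.24 and 0.15, but were at 0.04 and -0.12 under TMM scaling alone, whereas Rbfox3, which encodes the nuclear neuronal antigen NeuN, was at -0.10. The neuronal list summed to 3515 to 4178 CPM in WT_night and 3926 to 4582 in KO_night, so the groups overlap as a whole, and Tubb3 of this list was not tested for want of counts.

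Markers of oligodendrocytes rose in 4 of 8 (median 0.23), again where 3.98% of all genes rose: the myelin genes Mbp (0.29), Mag (0.29), Cnp (0.22) and Cldn11 (0.23). Astrocyte markers rose in 2 of 8 (median 0.10), Aldh1l1 by 0.34 ± 0.0709 (adjusted p = 0.0146) and the glutamate transporter gene Slc1a2 by 0.23. Under TMM scaling alone Mbp was at 0.18 (adjusted p = 0.0881) and Slc1a2 at 0.09 (adjusted p = 0.199). Summed levels overlapped in both lists, at 2002 to 2496 against 2200 to 2943 CPM and 1990 to 2437 against 2291 to 2659 CPM. Each of the oligodendrocyte and astrocyte calls given to named genes here was lost in at least 2 leave-one-out fits. Microglia (0 of 8) and endothelium (0 of 9) had no call in edgeR, with medians of 0.09 and 0.11, 2 and 0 genes at an unadjusted p under 0.05, and 2 and 0 calls in DESeq2. Markers of meninges and fibroblasts had no call in the edgeR fit reported here or in DESeq2, with 5 at an unadjusted p under 0.05. With the night libraries alone 1 member passed, and 1 fell with GC content also removed. All 7 tested were lower, with a median of -0.54, and their summed level of 596 to 923 CPM in WT_night did not overlap the 320 to 571 CPM of KO_night (Igf2 had too few counts to test). Col1a1 was at -0.62 (adjusted p = 0.0540) and Ptgds at -0.66 (adjusted p = 0.16). Pituitary markers varied widely in both groups, from 6.2 to 151 CPM in WT_night and from 5.9 to 255 in KO_night, and none of 8 passed in edgeR, at an unadjusted p or in DESeq2. The part of these cell types in the other changes was not tested.

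**Figure D5:**
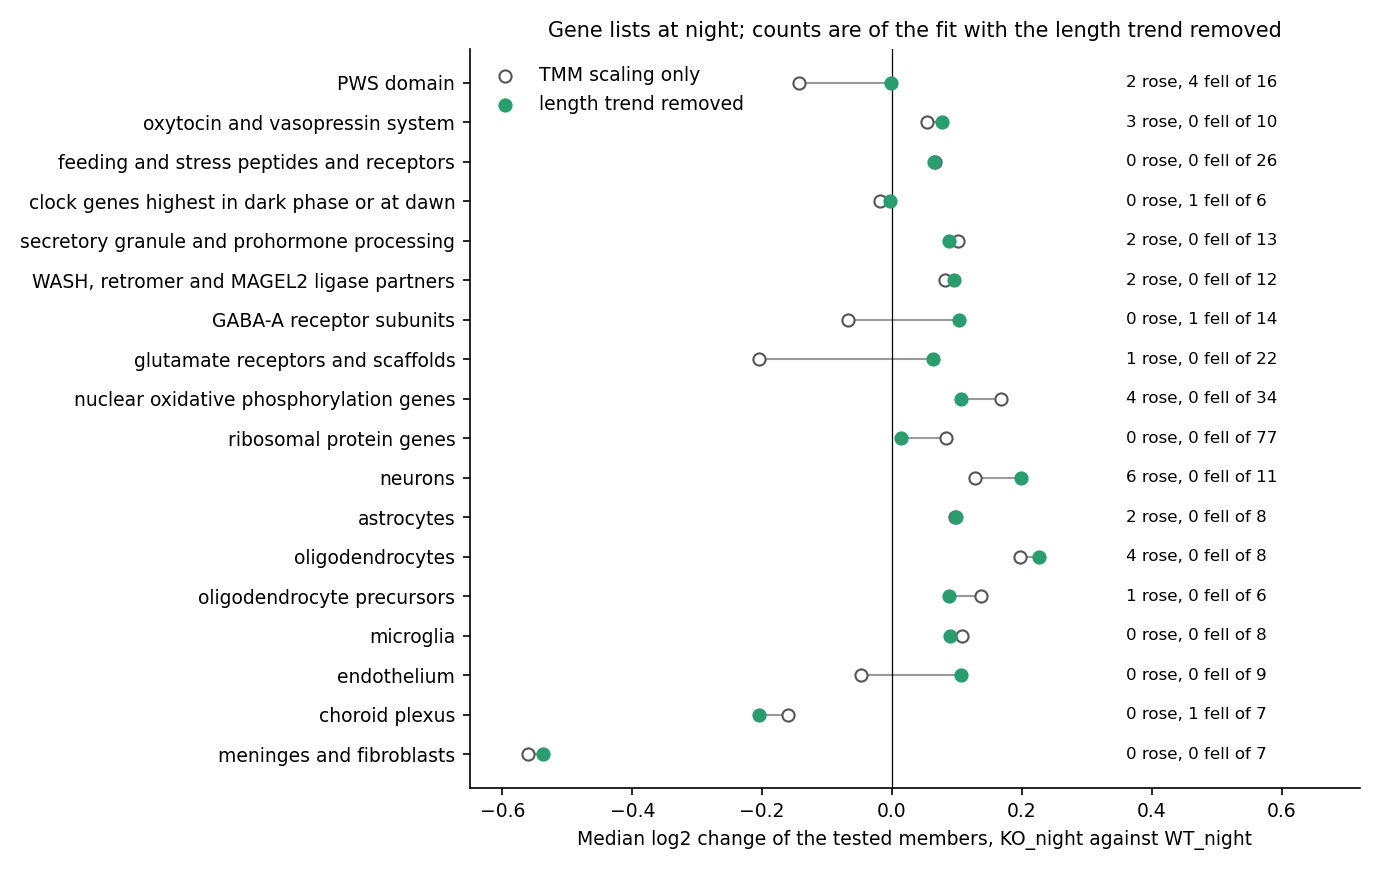
Median log2 change (KO_night against WT_night) of the tested members of 18 gene lists with TMM scaling only (open) and with the length trend removed (filled), with the number of members that rose and fell. Of the lists drawn, medians are highest for oligodendrocytes (0.23) and neurons (0.20) and lowest for meninges (-0.54), and they change sign with the trend for glutamate receptors, GABA-A receptors and endothelium.

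A pair of genes rose in each of the lists of prohormone processing and of MAGEL2's own pathway, where 3.98% of all genes rose. Cpe, carboxypeptidase E of the secretory granule, stood at 858, 903, 779, 1000 and 927 CPM in WT_night and at 998, 1286, 1120, 952 and 1053 CPM in KO_night. Cpe rose by 0.28 ± 0.0758 (adjusted p = 0.0345), with overlap, and Pam, which amidates peptides, by 0.24 (adjusted p = 0.0414). These are 2 of 13 genes on the secretory granule list, all 13 of which were higher (median 0.09). Under TMM scaling alone no member rose and 1 fell. Of 12 genes of the WASH complex, retromer and MAGEL2 ligase partners, the sorting nexin gene Snx27 (0.16, adjusted p = 0.0319) and the retromer subunit gene Vps26b (0.14, adjusted p = 0.0450) rose, and the median was 0.10. Each of these 4 calls held in only 3 or 4 of the leave-one-out fits.

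For receptors of the synapse, the direction depended on the length trend. Glutamate receptors and scaffolds had a median of 0.06, with 1 of 22 that rose, where 3.98% of all genes rose. Under TMM scaling alone their median was -0.20 and 9 fell, where 6.77% of all genes fell. The 1 that rose, Dlg2, a scaffold gene of very long span, was 0.13 ± 0.0391 (adjusted p = 0.0475) with the trend removed and -0.28 (adjusted p = 0.0393) without. GABA-A subunits had medians of 0.10 and -0.07. With the trend removed Gabrg3 alone of 14 passed, where 6.14% of all genes passed, and under TMM scaling alone 4 fell. Nuclear genes of oxidative phosphorylation were higher in 33 of 34 (median 0.11), where 11758 of all 22181 genes tested were higher. Of the 34, 4 rose, where 3.98% of all genes rose. Among the 4 were Uqcrc1 of complex III at 0.17 ± 0.0405 (adjusted p = 0.0210), Ndufs7 of complex I at 0.16 and Sdha of complex II at 0.15. Genes of the mitochondrial genome (0 of 13, median -0.09) and ribosomal protein genes (0 of 77, median 0.01) did not pass in edgeR, with 4 and 2 at an unadjusted p under 0.05 and 1 and 0 called by DESeq2. Glucocorticoid-induced genes were higher in 12 of 13 (median 0.22), with no call in edgeR or DESeq2 and 4 at an unadjusted p under 0.05. Under TMM scaling alone 1 of them rose. By day their median was -0.32, with 2 called, and 1 passed the test of night against day. Several lists gave 1 call each, where 6.14% of all genes passed. These were Hyou1 of 16 tested genes of the unfolded protein response (0.15) and Srebf2 of 22 of cholesterol synthesis (0.18). The others were Htr1b of 12 serotonin receptors (-0.27) and Hist1h2bq of 59 replication-dependent histones (0.77). The call of Hyou1 was kept in 1 of 10 leave-one-out fits. Of 14 tested genes of retinoic acid handling, 1 rose, Rxra at 0.23, and 1 fell, Cyp26b1 at -0.90. Further markers that passed were each the 1 call of their list. Cspg4 of oligodendrocyte precursors was at 0.23 (1 of 6 tested, list median 0.09). Abcc9 was at 0.30, but its list of pericytes and smooth muscle had 3 of 7 higher, 4 lower and a median of -0.10. Tmem212 was at -0.31, but its list of tanycytes and ependyma had 5 of 8 higher, 3 lower and a median of 0.08. Calb2 of thalamus was at 0.25 (1 of 7, list median 0.14). Alas2 of blood was at -0.46 ± 0.0984 (adjusted p = 0.0148, 1 of 6, list median -0.11). The p53 targets, heat and cold shock genes, interferon-stimulated genes, and striatal and sex-linked genes had no call in edgeR or DESeq2, with 3, 0, 0, 1 and 0 genes at an unadjusted p under 0.05.

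The largest changes by size often came from 1 or 2 libraries. Slc17a7, the vesicular glutamate transporter gene of cortex and hippocampus, topped the rises at 2.02 ± 0.594 (adjusted p = 0.0443), yet KO_night 1 and 2 held 7.02 and 3.43 CPM while the others had 0.273 to 0.580, within the 0.256 to 1.09 CPM of WT_night. Without KO_night 1 its change was 1.0. The list of cortex and hippocampus markers as a whole overlapped, at 132 to 152 CPM in WT_night and 137 to 159 in KO_night. The mitochondrial tRNA gene mt-Ty fell by 3.48, from 45.7, 8.06, 6.74, 9.09 and 344 CPM in WT_night to 6.80 to 8.09 CPM in KO_night, and by 1.24 without WT_night 5 (adjusted p = 0.0529). Gxylt1, a xylosyltransferase gene, fell by 2.33, from 105, 218, 86.8, 13.6 and 17.2 CPM to 14.2 to 28.9 CPM, and was at 0.18 without WT_night 1, 2 and 3.

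Lpl, the lipoprotein lipase gene, had 0.820, 0.953, 1.05, 0.564 and 0.787 CPM in WT_night and 1.48, 2.18, 1.15, 1.19 and 1.7 CPM in KO_night. It rose by 0.87 ± 0.201 (adjusted p = 0.0199) with no overlap, and its change was 0.71 to 0.97 with 1 library left out, although the call was lost without KO_night 2 or WT_night 1 (adjusted p up to 0.0709). Among the 12 largest rises were also Ush1c, a scaffold gene of sensory hair cells (0.96), Myo3a, a myosin gene (0.68), Scn4b, a sodium channel subunit gene (0.48), Art3 (0.46), Nppc, which encodes C-type natriuretic peptide (0.45), and Uchl1os (0.44), which overlaps Uchl1. Of these calls Nppc held in 1 of 10 leave-one-out fits, Art3 and Scn4b in 4, Ush1c in 5, Myo3a in 6 and Uchl1os in 8. With the night libraries alone only Scn4b of them passed (adjusted p = 0.0487). Stum rose by 0.49, but by 0.29 without KO_night 2 (adjusted p = 0.0365), and Fibcd1 by 0.48, but was at 0.29 without KO_night 1 (adjusted p = 0.149). Fgfr2, a growth factor receptor gene, rose by 0.45, but was at 0.02 under TMM scaling alone, and its annotated span takes in several other genes. Of the falls, Omd and Ogn, which encode matrix proteins of connective tissue, fell by 0.92 and 0.91, with all KO libraries below all WT libraries. The meningeal and fibroblast list stood lower in the same libraries, as given above, and its part in these 2 falls was not tested. Ogn passed in none of the leave-one-out fits. Smaller falls were those of Bcas3os2 (-0.81), Tmem132cos (-0.80), Ccdc169 (-0.75), Anpep (-0.70), Unc5cl (-0.70), Lncbate1 (-0.70) and the creatine kinase gene Ckmt2 (-0.69). The call of Bcas3os2 held in 2 of 10 leave-one-out fits, that of Ckmt2 in 3 and those of the others in 6. None of these smaller falls passed with the night libraries alone.

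The 79 genes that passed in every leave-one-out fit, the deleted genes among them, had a median change of 0.25 for the 53 that rose and -0.65 for the 26 that fell. Of these, 23 lie on chromosome 7, 10 of them within 5 Mb before Ndn. Requiring the calls of TMM scaling alone and of the night-only fit as well left 36 genes, of which 12 rose and 24 fell, with 17 on chromosome 7. The genes outside the region that follow were chosen from this set after their values were seen. Tuba1c, an alpha-tubulin gene, stood at 27.2, 29.5, 24.4, 29.2 and 28.8 CPM in WT_night and at 32.6, 35.1, 33.0, 41.7 and 40.4 CPM in KO_night. The groups do not overlap, the change was 0.39 ± 0.0728 (adjusted p = 0.00944), and Tuba1c also passed with agreeing time labels (adjusted p = 0.0137). Ogdhl, which encodes an oxoglutarate dehydrogenase-like enzyme, rose from 91.3 ± 3.19 to 108 ± 4.71 CPM (0.24 ± 0.0410, adjusted p = 0.00597). Zfp976, a zinc finger gene on chromosome 7 outside the 5 Mb window, fell from 11.6 ± 1.67 to 8.42 ± 0.662 CPM (-0.46 ± 0.0795, adjusted p = 0.00638).

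The genotype effect at night differed from that by day in 35 genes (0.158%), with 29 positive and 6 negative differences in edgeR's interaction test, and the comparison by day called 42 genes (0.189%). Nefm was at 0.31 at night and -0.05 by day, a difference of 0.37 (adjusted p = 0.0494). Rxra was at 0.23 and -0.18, a difference of 0.41 (adjusted p = 0.0494). In the region, Gm44644 was at -0.46 and -0.02, a difference of -0.44 (adjusted p = 0.0494). DESeq2 called 610 genes. Without the library labelled WT_day 3 edgeR called 0, with 3234 genes at an unadjusted p under 0.05, and under TMM scaling alone it called 0, with 4910. It also called 0 without WT_night 3 and without KO_night 2, with 3014 and 3050 genes at an unadjusted p under 0.05. It called 1 without KO_night 5, 2 without WT_night 2 or WT_night 5, 8 without WT_night 1 and 10 without KO_night 1. Leaving out KO_night 3, WT_night 4 or KO_night 4 gave 38, 256 and 951 calls. A straight line on span in place of the smooth trend left 1. The 35 calls thus depend on single libraries and on how the trend is removed.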

How the data were processed

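The authors deposited raw read counts for each gene, and the submitters' processing notes name HISAT2, featureCounts and mm10. Versions, annotation and strand setting are not given in the sources used here. Counts follow whole gene spans without separating strands, as checked on nested genes, so overlapping genes and near-identical copies are uncertain. GENCODE M21 (GRCm38) gave names and positions for 53706 of 53801 identifiers. Limits set by depth cover counting error only, where 0 counts could hide up to 3. Within night groups no pair of libraries matched within counting noise (chi-square per degree of freedom 7.88 to 52.6).

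Genes were tested with edgeR 4.0.16 (R 4.3.3), quasi-likelihood F-test, on 22181 genes kept by filterByExpr (minimum count 10), in 1 fit of 4 group means to 20 libraries with 16 residual degrees of freedom. Offsets held TMM-scaled totals (factors 0.945 to 1.085) and each library's lowess trend (f 0.3, 3 iterations) of log2 CPM (prior count 2) on log10 gene span. The threshold was an adjusted p of 0.05 (Benjamini-Hochberg). Errors of changes are standard errors, those of levels SDs. The code was tested on simulated counts with known changes. Single values were compared with exact two-sided permutation tests (scipy 1.17.1).

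Named genes are Magel2, Ndn, the tested members of the Prader-Willi list, the genes Npas2, Arntl, Prlr, Lepr, Npy, Crh, Avp and Oxt, the 12 largest rises and falls among called genes with a mean of at least 1 CPM and not named after a clone, and up to 3 called members of each list by p. Any other gene was named after its values were seen, and 1 gene of the Prader-Willi list is not reported here. These members and lists were chosen with earlier results of these data known. Alternatives were other length measures or none, DESeq2 1.42.0, upper-quartile scaling, no filter, the night libraries alone, each library left out, other readings of the time labels, a replicate block and removal of GC content. GC content came from the longest transcript, as no genome sequence was used here.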

Additional observations from a re-analysis of the deposited data

Results flagged for a closer look

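Of 156 combinations of a named gene, or the slope on gene span, with a night group, 10 held a library far from the other 4, against about 1 in 20 that chance gives. In KO_night these were Oca2 in replicate 5 (0.797 CPM, others 0.349 to 0.467), Crh in replicate 3 (5.20, others 3.62 to 4.03), Stum in replicate 2 (50.7, others 26.1 to 32.2), Fibcd1 in replicate 1 (9.93, others 5.42 to 6.58), Gxylt1 in replicate 3 (28.9, others 14.2 to 15) and Aldh1l1 in replicate 2 (61.3, others 48.4 to 50.5). In WT_night they were Art3 in replicate 2 (1.82, others 2.0 to 2.08), mt-Ty in replicate 5 (344, others 6.74 to 45.7), Mag in replicate 3 (85.8, others 79.2 to 80.6) and Abcc9 in replicate 3 (5.54, others 6.57 to 6.97). No library held more than 2 of the 10.

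The genotype effect differed between night and day by edgeR's interaction test in 2 named genes, Rxra by 0.41 and Nefm by 0.37 on the log2 scale (adjusted p = 0.0494 each). Neither passed without the library labelled WT_day 3.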

How the results depend on the processing

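Calls at night (1363) moved beyond 1.5 times to 2649 under TMM scaling alone, 2330 with union exon length in place of span, 72 with the 10 night libraries only, 6 with agreeing time labels, 4 by the time field, 12 without WT_night 1, 2 and 3, and 90 to 2788 with 1 night library left out. They were 1476 with a straight line on span, 2040 by DESeq2, 1100 with upper-quartile scaling, 1301 without a filter and 1400 with GC content also removed, an alternative added after seeing the data. Replicate numbers did not pair the samples (correlations of same-numbered libraries -0.199 to 0.0735, with 1 of 5 WT libraries closest to its own number), and a replicate block gave 1098 calls at night and 99 for the interaction. Calls of the interaction (35; its alternatives were added after seeing the data) were 0 under TMM scaling alone, without the library labelled WT_day 3, with agreeing time labels, by the time field and without WT_night 1, 2 and 3, 1 with a straight line, 97 without a filter, 97 with GC content removed, 610 by DESeq2 and 0 to 951 with 1 library left out. The slope difference of -0.08 became -0.019 on union exon length (exact permutation p = 0.175). Of the alternatives for the 77 named genes, 1084 left the side of the threshold as it was, 617 lost a call, 24 gained one and 44 turned the sign. Signs turned with 1 library left out for Peg12 (-0.090 to 0.28), Atp10a (-0.086 to 0.036), Gabra5 (-0.038 to 0.016), Oca2 (-0.16 to 0.41), Nipa1 (-0.028 to 0.053) and Nipa2 (-0.038 to 0.042). Under TMM scaling alone Oca2 was -0.17, Herc2 -0.0039, Nipa1 -0.020, Arnt2 -0.0087 and Dlg2 -0.28. On union exon length Oca2 was -0.19, Nipa1 -0.046, Nipa2 0.020 and Dlg2 -0.16. A straight line gave Oca2 -0.063, Nipa2 0.011 and Dlg2 -0.11. With GC content removed Snhg14 was 0.062, Gabra5 0.0051 and Nipa2 0.034. Nipa1 was -0.00067 with night libraries alone and -0.0026 with upper-quartile scaling. Agreeing time labels gave Nipa1 -0.076 and Slc17a7 -0.66. The time field gave Atp10a 0.0077, Gabra5 0.0021, Nipa1 -0.061, Tubgcp5 -0.011, Slc17a7 -0.56 and Fibcd1 -0.038. Without WT_night 1, 2 and 3 Atp10a was 0.012 and Gxylt1 0.18. The cause was not tested. GC content from genome sequence was not run. Depth limits the lowest genes, such as Magel2 in KO_night with 0 to 7 counts per library.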
